A study of Mus musculus with 30 samples.

Results

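The genes described here encode the nuclear-encoded subunits of the mitochondrial respiratory chain and ATP synthase. They were taken from a table of 20563 genes by symbol alone, as every gene whose name begins with Ndufa, Ndufb, Ndufc, Ndufs, Ndufv, Cox4 to Cox8, Uqcr or Atp5, together with Sdha, Sdhb, Sdhc and Sdhd. The rule found 88 genes. By their known roles, 7 encode core subunits of complex I, 28 supernumerary subunits of complex I and 8 its Ndufaf assembly factors, which match the name pattern but are not subunits. A further 4 encode complex II, 8 complex III, 18 complex IV, 5 the F1 part of ATP synthase and 9 its Fo part and stalks. The last, Atp5sl, carries an Atp5 name and is not a subunit. Subunits under other names, such as cytochrome c1 (Cyc1), are not caught by the rule, and the mitochondrially encoded subunits, Cox7a1 and Cox8b were not analysed here.

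The respiratory chain passes electrons from NADH (complex I) and succinate (complex II) through complex III and cytochrome c to oxygen at complex IV. Complexes I, III and IV pump protons across the inner mitochondrial membrane, and ATP synthase (complex V) lets them flow back to make ATP. Most of its subunits are nuclear genes whose products must be assembled with a smaller set made inside mitochondria. Mouse embryonic stem cells (ES cells, the cultured cells of the early embryo) kept with LIF are known to use both glycolysis and oxidative phosphorylation, and their mitochondria change in shape and use as the cells leave pluripotency.

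RNA was sequenced from 5 mouse ES cell lines, kept undifferentiated with the cytokine LIF at day 0, and then grown without it as floating aggregates (embryoid bodies) to day 4 and day 8. Each of the 15 groups had 2 libraries, 30 in all, labelled biological duplicates. Pali1 knockout (Pali1-/-) and Pali1/2 double knockout (Pali1-/-, Pali2-/-) were each compared with Pali wild type. Pali1 and Pali2 are proteins from the Lcor and Lcorl loci that bind Polycomb repressive complex 2 (PRC2). C129 wild type was compared with the Aebp2 gene trap (Aebp2gt/gt), in which another PRC2 partner is interrupted. That pairing was read from the order of the design and is not stated in it. The sources used here do not say whether a genotype was 1 clone or several, and the tests therefore rest on the spread between cultures. All lines shared the same medium with serum at day 0, and total RNA was depleted of ribosomal RNA.

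The values are normalised read counts, a signal per gene scaled between libraries by the authors, with no counts of reads beside them. Library totals of this signal ran from 15470082 to 18336791, and 12142 to 13390 genes reached a value of 10. Duplicates correlated across genes at 0.966 to 0.974 on the log2 scale. Aebp2 lay between 17.1 and 66.4 in the 6 gene trap libraries and between 1232 and 2784 in the other 24. Lcor (41.4 to 133) and Lcorl (294 to 858) overlapped between wild type and knockout lines, and a gene total does not check the loss of part of a locus. The 9 pluripotency markers, which include Pou5f1, Sox2 and Nanog, summed to 85828 to 134364 at day 0. They summed to 31450 to 63401 at day 4 and to 18630 to 71259 at day 8. These sums were higher at day 8 than at day 4 in Pali wild type, the double knockout and the gene trap. In Pali1 knockout and C129 they were lower at day 8. In 2 libraries, the first double knockout replicates of day 0 and of day 4, the description field gives a culture state that conflicts with the title. Grouping followed titles, source names and growth protocols, and the counts and named calls of the double knockout were recomputed without both libraries. Replicate 2 of Pali wild type stood apart in yolk sac markers. Their sum was 12804 at day 8 against 317 in replicate 1, and 4595 at day 4 against 158. In the other lines the sums ran from 808 in the double knockout to 5339 in C129 at day 8. At day 4 they ran there from 80.3 in Pali1 knockout to 740 in the double knockout. Replicate 1 of Pali wild type was thus the lowest library at day 8.

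Of the 88 genes, 85 reached a value of 10 in at least 2 libraries and were tested. The other 3 are tissue-restricted forms of complex IV subunits. Cox4i2, a lung and hypoxia form, was listed at 0 in 7 libraries with a highest value of 14.0. Cox6a2, the heart and muscle form, was listed at 0 in 18 libraries with a highest value of 3.65, and Cox8c, a testis form, in 20 with a highest value of 3.77. Exact values of 0 can be failed estimates, and many of the 88 genes have near-identical processed copies elsewhere in the genome, so their values carry the uncertainty of how reads were shared out.

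The respiratory chain genes took a smaller share of the RNA in embryoid bodies than in undifferentiated ES cells, in every line. The 88 genes together held 1.27 to 1.49% of a library's signal at day 0, with a median of 1.40% over 10 libraries. They held 1.07 to 1.26% at day 4, with a median of 1.17%, and 1.03 to 1.21% at day 8, with a median of 1.08%. All 20 embryoid body libraries lay below all 10 day 0 libraries by this sum. The double knockout libraries were the lowest at day 0, at 1.27 and 1.28%, and replicate 1 among them is 1 of those with a conflicting description. In bulk libraries, fewer cells of a type and less RNA per cell cannot be told apart.

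**Figure D1:**
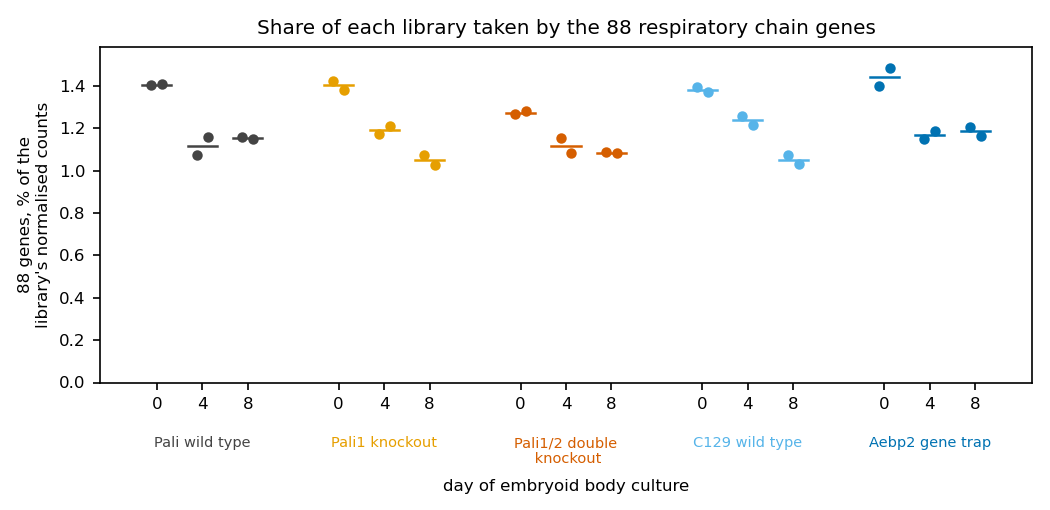
Summed signal of the 88 respiratory chain genes as a percentage of each library's total (vertical axis) for the 5 lines at day 0, 4 and 8, 1 point per library. The day 0 libraries lie between 1.27 and 1.49%, and the day 8 libraries between 1.03 and 1.21%.

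By day 8 the tested genes that changed had almost all fallen. A gene was taken to have risen or fallen where its adjusted p was under 0.05 in limma's moderated test across all 15712 tested genes. In Pali wild type 47 of 85 fell and 0 rose (11.7% of all tested genes fell and 14% rose). In Pali1 knockout 63 fell and 0 rose (20.1% and 22% of all genes). In the double knockout 37 fell and 0 rose (14.2% and 16.7%). C129 wild type had 47 fall and 1 rise (22.4% and 23.4%), and the Aebp2 gene trap 41 fall and 1 rise (14.9% and 16.3%).

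The falls were moderate in size. The median log2 change of the 85 genes at day 8 was -0.38 in Pali wild type, -0.48 in Pali1 knockout, -0.31 in the double knockout, -0.37 in C129 and -0.36 in the gene trap. Over all tested genes the same medians lay between 0.02 and 0.04. The counts depended on single libraries in every line. Values for 3 lines are given here, and the ranges for all lines are given further below. Pali wild type had 27 calls at day 8 without its day 8 replicate 1 and 31 without its day 0 replicate 2. The double knockout had 18 without day 0 replicate 1, 23 without day 0 replicate 2 and 20 without day 8 replicate 1. Without both of its libraries with conflicting descriptions it had 20, among them Ndufv1, Uqcrc1, Cox5a, Atp5b, Atp5l and Atp5g1. The gene trap had 23 without day 0 replicate 2 and 27 without day 8 replicate 2. With each pair of groups fitted alone, the counts were 28, 53, 19, 34 and 17 in the order of lines above.

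Falls were also called at day 4. At that day 37 of 85 genes fell in Pali wild type (12.7% of all tested genes), 24 in Pali1 knockout (15.3%), 23 in the double knockout (13.9%), 25 in C129 (15%) and 37 in the gene trap (15%). The median log2 changes were -0.36, -0.19, -0.18, -0.15 and -0.32 in the same order. Without both double knockout libraries with conflicting descriptions, that line had 16 calls and a median of -0.32, and without its day 4 replicate 1 alone a median of -0.30. Genes that rose numbered 1, 1, 1, 0 and 2 (14.7%, 15.2%, 13.6%, 14% and 15.7% of all genes). Without single libraries the day 4 counts went down to 21 in Pali wild type (without day 4 replicate 1), 15 in Pali1 knockout (without day 4 replicate 1) and 14 in the double knockout (without day 4 replicate 2). They went down to 12 in C129 (without day 4 replicate 2) and to 21 in the gene trap (without day 0 replicate 2). Other libraries that moved a day 4 count by over 1.5 times were both day 0 libraries of Pali wild type (24 each), day 0 replicate 1 of Pali1 knockout (16) and day 0 replicate 1 of C129 (15).

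A set of 24 genes fell at day 8 in each of the 5 lines, 28.2% of those tested, where 5.31% of all tested genes did so. They included Ndufa1, Ndufa5, Ndufa9, Ndufa11, Ndufb8 and Ndufv1 of complex I, Uqcrb, Uqcrc1, Uqcrfs1 and Uqcr11 of complex III, and Cox4i1, Cox5a, Cox6c, Cox7b and Cox8a of complex IV. ATP synthase contributed Atp5a1, Atp5b, Atp5c1, Atp5f1, Atp5g1, Atp5j2, Atp5l and Atp5o, and complex II none. At day 4 the count was 13 (4.49% of all tested genes). In 31 genes every day 8 library lay below every day 0 library, where 6.07% of all tested genes did, and at day 4 in 9 genes, where 4.19% did. The counts below without some libraries were made anew, so they can hold genes outside these sets. Without both libraries with conflicting descriptions the counts of genes that fell in 5 lines were 18 at day 8 and 9 at day 4, and those of separated genes 34 and 14. Genes that then missed the threshold in the double knockout at day 8 included Ndufa1, Ndufa5, Ndufb8, Uqcrb, Uqcrfs1, Cox6c, Cox8a and Atp5o, with adjusted p from 0.0509 to 0.137. At day 4 they were Atp5f1, Cox5a, Ndufa11 and Ndufb10, with adjusted p from 0.0588 to 0.159. Without both libraries high in yolk sac markers they were 20 and 12, and 31 and 9.

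**Figure D2:**
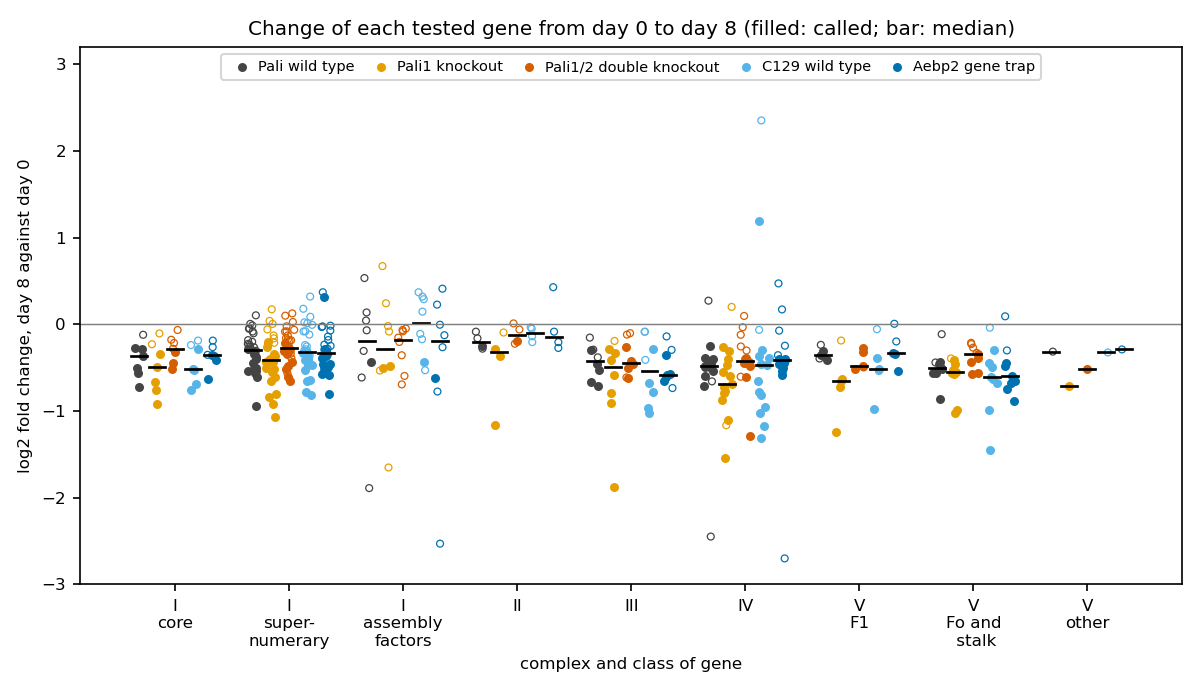
Log2 change from day 0 to day 8 (vertical axis) of each of the 85 tested genes, by complex and by line. Filled points passed the test and bars are medians. Points lie mainly below 0 in complexes III, IV and V, and the complex II medians lie between -0.33 and -0.10.

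A group of 3 promoters is shown because they belong to genes that fell in all 5 lines and hold an NRF1 motif match wholly before the start. NRF1, nuclear respiratory factor 1, is a transcription factor known for binding promoters of nuclear mitochondrial genes. Capitals mark the match, which is GCGCA, any base, then GCGC, searched on both strands. Each sequence is the 130 bases before the annotated start, 5′ to 3′ on the gene's strand, from RefSeq on GRCm38.p6. Atp5c1 lies at chr2:10080433-10080562 on the minus strand, Ndufa11 at chr17:56717632-56717761 on the plus strand and Ndufa5 at chr6:24527691-24527820 on the minus strand. GENCODE, the source of the other gene coordinates given here, starts Ndufa5 at 24528013 and Atp5c1 at 10080510. By that annotation the printed stretch of Ndufa5 lies inside the gene. That of Atp5c1 lies partly inside, with its match.
Atp5c1: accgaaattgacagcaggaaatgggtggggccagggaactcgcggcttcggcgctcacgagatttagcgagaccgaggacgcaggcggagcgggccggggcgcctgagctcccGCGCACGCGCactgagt
Ndufa11: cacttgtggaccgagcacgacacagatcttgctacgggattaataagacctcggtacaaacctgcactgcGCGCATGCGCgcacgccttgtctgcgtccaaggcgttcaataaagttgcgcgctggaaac
Ndufa5: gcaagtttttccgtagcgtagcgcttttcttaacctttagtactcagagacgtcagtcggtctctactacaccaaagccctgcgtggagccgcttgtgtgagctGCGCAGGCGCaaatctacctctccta

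The match ends 8 bases before the RefSeq start in Atp5c1, 51 bases before it in Ndufa11 and 17 bases before it in Ndufa5. A promoter window, from 250 bases before to 50 after the start, was found for 70 of the 88 genes. The NRF1 motif stood in 25.7% of these windows, in 9.92% of those of all tested genes and in 5.19% of all 27025 windows. Of the 24 genes that fell in 5 lines, 18 had a window, and 5 of these (27.8%) held the motif, namely Atp5c1, Atp5o, Ndufa11, Ndufa5 and Uqcrc1. In Atp5o and Uqcrc1 the match did not lie wholly before the start, so they are not printed. The ETS motif CCGGAAG, the core bound by the GABP factor, stood in 24.3% of the gene group's windows and 17.3% of tested genes' windows. The motif AAGATGGCG, named for the factor YY1, stood in 11.4% and 2.98%. In the 18 windows of genes that fell in 5 lines, the ETS motif stood in 16.7% and the YY1 motif in 11.1%. The first letters of this motif can be the last of the ETS motif, so 1 stretch can hold both. These matches describe the letters of the windows, and the data hold no measure of binding.

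Complex I takes electrons from NADH, and its core subunits carry the flavin and the iron-sulphur clusters. At day 8, 6, 5, 3, 5 and 4 of the 7 core genes fell in Pali wild type, Pali1 knockout, double knockout, C129 and gene trap, and none rose. Ndufv1 (chr19:4007384-4012806, minus strand, GRCm38) encodes the subunit that binds NADH. Its normalised counts ran from 3011 through a median of 3549 to 3862 over the 10 day 0 libraries, and from 2033 through 2410 to 2841 at day 8. The libraries of the 2 days did not overlap. The log2 changes were -0.56, -0.67, -0.45, -0.53 and -0.37 in the same order of lines, each with an SE of 0.091, and the adjusted p of limma's test lay between 1.45e-05 and 0.00498. The gene trap's call was lost without its day 0 replicate 2 (adjusted p = 0.0585).

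Ndufs1, the largest iron-sulphur subunit, fell in 4 lines by 0.63 to 0.76 on the log2 scale. In the double knockout its log2 change was -0.28 (adjusted p = 0.214, limma). Ndufs8, a further iron-sulphur subunit, fell in 4 lines by 0.51 to 0.91 and had a log2 change of -0.19 in the gene trap (adjusted p = 0.231). The core subunit Ndufs7 passed the test in no line at day 8.

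The 28 supernumerary subunits surround the core and serve its assembly and stability. At day 8, 13, 20, 10, 13 and 13 of them fell in the same order of lines, with medians of -0.29, -0.41, -0.27, -0.32 and -0.33. Ndufa5 (chr6:24518666-24528013, minus strand), whose RefSeq promoter is printed above, was among the steepest. It ran from 485 through 561 to 647 at day 0, from 373 through 413 to 582 at day 4 and from 272 through 315 to 437 at day 8. The day 8 libraries lay below all day 0 libraries. Its log2 changes at day 8 were -0.94, -0.80, -0.65, -0.78 and -0.59, each with an SE of 0.21, and adjusted p between 0.00317 and 0.0415. Without both double knockout libraries with conflicting descriptions that line's change of Ndufa5 was -0.54 (adjusted p = 0.122). Ndufa9, a subunit of the arm that faces the matrix, fell in all 5 lines by 0.31 to 0.49 on the log2 scale.

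Other members of the same shell moved little or the other way. Ndufs4, a subunit of the matrix arm whose loss causes complex I deficiency in mice, ran from 965 through 1176 to 1369 at day 0 and from 1163 through 1233 to 1338 at day 8. The days overlapped. It rose in the gene trap at day 8 by 0.31 on the log2 scale (adjusted p = 0.0132, limma) and passed the test in no other line at that day. Ndufa12, Ndufab1 (the mitochondrial acyl carrier protein), Ndufb11 and Ndufs5 did not pass the test in any line at day 8. Of the 8 assembly factors, 1, 2, 0, 1 and 1 fell at day 8. Ndufaf4 was the factor that fell in 4 lines, by 0.44 to 0.62 on the log2 scale. Ndufaf6 could not be followed, since it was listed at 0 in 7 libraries and duplicates went as far apart as 0 and 206 in Pali1 knockout at day 0.

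Complex II is succinate dehydrogenase, the enzyme shared by the respiratory chain and the tricarboxylic acid cycle. At day 8, 1, 3, 1, 0 and 0 of its 4 genes fell, beside 11.7%, 20.1%, 14.2%, 22.4% and 14.9% of all tested genes. With only 4 genes, such counts cannot be compared closely with those shares. The medians were -0.20, -0.33, -0.13, -0.10 and -0.15. Sdha (chr13:74322254-74350280, minus strand), the flavoprotein, ran from 4571 through 5760 to 7098 at day 0 and from 4380 through 5134 to 5978 at day 8. The days overlapped. It fell in Pali wild type by 0.24 on the log2 scale (adjusted p = 0.00689), in Pali1 knockout by 0.36 (0.000137) and in the double knockout by 0.19 (0.0246), or adjusted p = 0.11 there without both libraries with conflicting descriptions. In C129 its change was -0.05 (adjusted p = 0.54) and in the gene trap -0.08 (adjusted p = 0.337). The double knockout's call was lost without any 1 of its 4 libraries, and that of Pali wild type without day 8 replicate 2 (adjusted p = 0.0874).

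Sdhb, the iron-sulphur subunit of complex II, fell at day 8 in Pali1 knockout and passed in no other line, and that value rested on 1 library. Its normalised counts there were 410 and 314 at day 0, and 273 and 90.4 at day 8. The log2 change was -1.17 (adjusted p = 0.00987, limma), and without day 8 replicate 2 it was -0.39 (adjusted p = 0.298). Without day 0 replicate 1 it was -0.97 (adjusted p = 0.0841). Sdhc, a membrane anchor of the complex, passed the test in no line at day 8, with log2 changes from -0.21 to -0.06.

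Complex III passes electrons from ubiquinol to cytochrome c. At day 8, 5, 7, 5, 5 and 5 of its 8 genes fell, with medians of -0.42, -0.50, -0.44, -0.54 and -0.58. Uqcrc1 (chr9:108936633-108949623, plus strand), a core subunit on the matrix side, ran from 5904 through 7221 to 8566 at day 0, from 3775 through 4383 to 4854 at day 4 and from 3731 through 4077 to 5076 at day 8. Every embryoid body library lay below every day 0 library. Its log2 changes at day 8 were -0.52, -0.91, -0.62, -0.97 and -0.66, each with an SE of 0.078. The adjusted p of limma's test lay between 2.66e-08 and 9.41e-05, and each call held without any 1 of the libraries compared.

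Uqcrb, which helps to bind ubiquinone, ran from 1076 through 1219 to 1479 at day 0 and from 623 through 776 to 958 at day 8, without overlap. It fell in all 5 lines, by 0.46 to 0.80 on the log2 scale. In the double knockout without both libraries with conflicting descriptions Uqcrb had an adjusted p of 0.117. Uqcrc2, the partner core subunit of Uqcrc1, fell in Pali1 knockout by 0.28 and passed in no other line. Uqcrh, the hinge protein, passed the test in no line at day 8. Uqcr10, a small membrane subunit, had low values, 165 and 139 at day 0 against 26.1 and 55.9 at day 8 in Pali1 knockout (log2 change -1.87, adjusted p = 4.3e-05). In C129 it went from 214 and 188 to 75.6 and 123 (-1.02, adjusted p = 0.00672), a call lost without day 8 replicate 1 (0.108) or day 0 replicate 1 (0.0512).

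Complex IV is cytochrome c oxidase, which reduces oxygen. At day 8, 11, 13, 8, 12 and 8 of its 15 tested genes fell, with medians of -0.48, -0.69, -0.43, -0.47 and -0.41. Cox5a (chr9:57521274-57532426, plus strand), a subunit on the matrix side, ran from 2572 through 3263 to 3729 at day 0, from 2029 through 2254 to 2879 at day 4 and from 1624 through 1995 to 2553 at day 8. The highest day 8 library lay just under the lowest at day 0. The log2 changes at day 8 were -0.54, -0.88, -0.48, -1.03 and -0.45, with adjusted p between 3.72e-07 and 0.00318. Cox4i1, the common form of the subunit at which ATP inhibits the enzyme, fell in all 5 lines by 0.40 to 0.81 on the log2 scale.

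Among further subunits of complex IV, Cox7b, encoded on the X chromosome (chrX:106015700-106022450, plus strand), ran from 2415 through 2858 to 3244 at day 0 and from 1499 through 1775 to 2176 at day 8, without overlap. Its log2 changes were -0.71, -0.79, -0.45, -0.78 and -0.59, and Cox6c fell in all 5 lines by 0.43 to 0.95 (adjusted p = 0.0736 in the double knockout without both libraries with conflicting descriptions). Cox7c fell in Pali1 knockout (log2 change -1.10, adjusted p = 0.000566) and in C129 (-1.18, adjusted p = 0.000244). Its libraries in C129 were 2172 and 2043 at day 0 against 1078 and 799 at day 8. Cox7a2l, which ties complex III to complex IV in supercomplexes, fell in Pali wild type by 0.25 and in Pali1 knockout by 0.26, and passed in no other line.

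ATP synthase turns in its F1 part, where ADP is phosphorylated, driven by the membrane ring of its Fo part. Of the 5 F1 genes 3, 4, 4, 3 and 3 fell at day 8. Atp5b (chr10:128083273-128090391, plus strand), the catalytic beta subunit, ran from 48204 through 55321 to 61647 at day 0. It ran from 34320 through 40054 to 48644 at day 4 and from 29578 through 34153 to 41925 at day 8. Every day 8 library lay below every day 0 library. The log2 changes at day 8 were -0.41, -0.73, -0.52, -0.98 and -0.54, each with an SE of 0.070. The adjusted p lay between 7.37e-09 and 0.000354, and each call held without any 1 of the libraries compared.

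Atp5a1, the alpha subunit, fell in all 5 lines by 0.35 to 0.66 on the log2 scale, and Atp5c1, the central gamma shaft, by 0.31 to 0.63. The small F1 genes each passed in 1 line. Atp5e, the epsilon subunit, fell in Pali1 knockout (log2 change -1.24, adjusted p = 0.00184), and Atp5d, the delta subunit, fell in the double knockout by 0.27. Without both double knockout libraries with conflicting descriptions the adjusted p of Atp5d was 0.103.

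Of the 9 genes of the Fo part and stalks, 7, 8, 5, 8 and 7 fell at day 8, with medians of -0.50, -0.56, -0.35, -0.61 and -0.59. Atp5l (chr9:44912557-44920742, minus strand), the membrane subunit g, was among those that fell in all lines. It ran from 1364 through 1510 to 1959 at day 0, from 922 through 1124 to 1362 at day 4 and from 587 through 782 to 991 at day 8. Embryoid body libraries of both days lay below all day 0 libraries. The log2 changes at day 8 were -0.87, -0.99, -0.57, -1.46 and -0.88, each with an SE of 0.149, and adjusted p between 3.74e-07 and 0.00745. The double knockout's call was lost without its day 0 replicate 2 (adjusted p = 0.0596).

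Atp5g1, Atp5g2 and Atp5g3 encode the same mature c subunit of the rotating ring with different import sequences, and they passed the test in 5, 2 and 4 lines. Atp5g1 ran from 1667 through 2268 to 2970 at day 0 and from 1067 through 1339 to 2023 at day 8. It fell in all 5 lines, with log2 changes of -0.56, -1.03, -0.57, -0.99 and -0.68. Atp5g2 ran from 3995 through 4881 to 5874 at day 0 and from 3569 through 4167 to 5074 at day 8. It fell in Pali1 knockout (-0.41, adjusted p = 0.00309) and C129 (-0.30, adjusted p = 0.0229), while its changes were -0.11, -0.23 and 0.09 in Pali wild type, double knockout and gene trap. Atp5g3 fell in 4 lines and in the double knockout had a log2 change of -0.33 (adjusted p = 0.0602). The difference between the 3 genes was not tested.

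**Figure D3:**
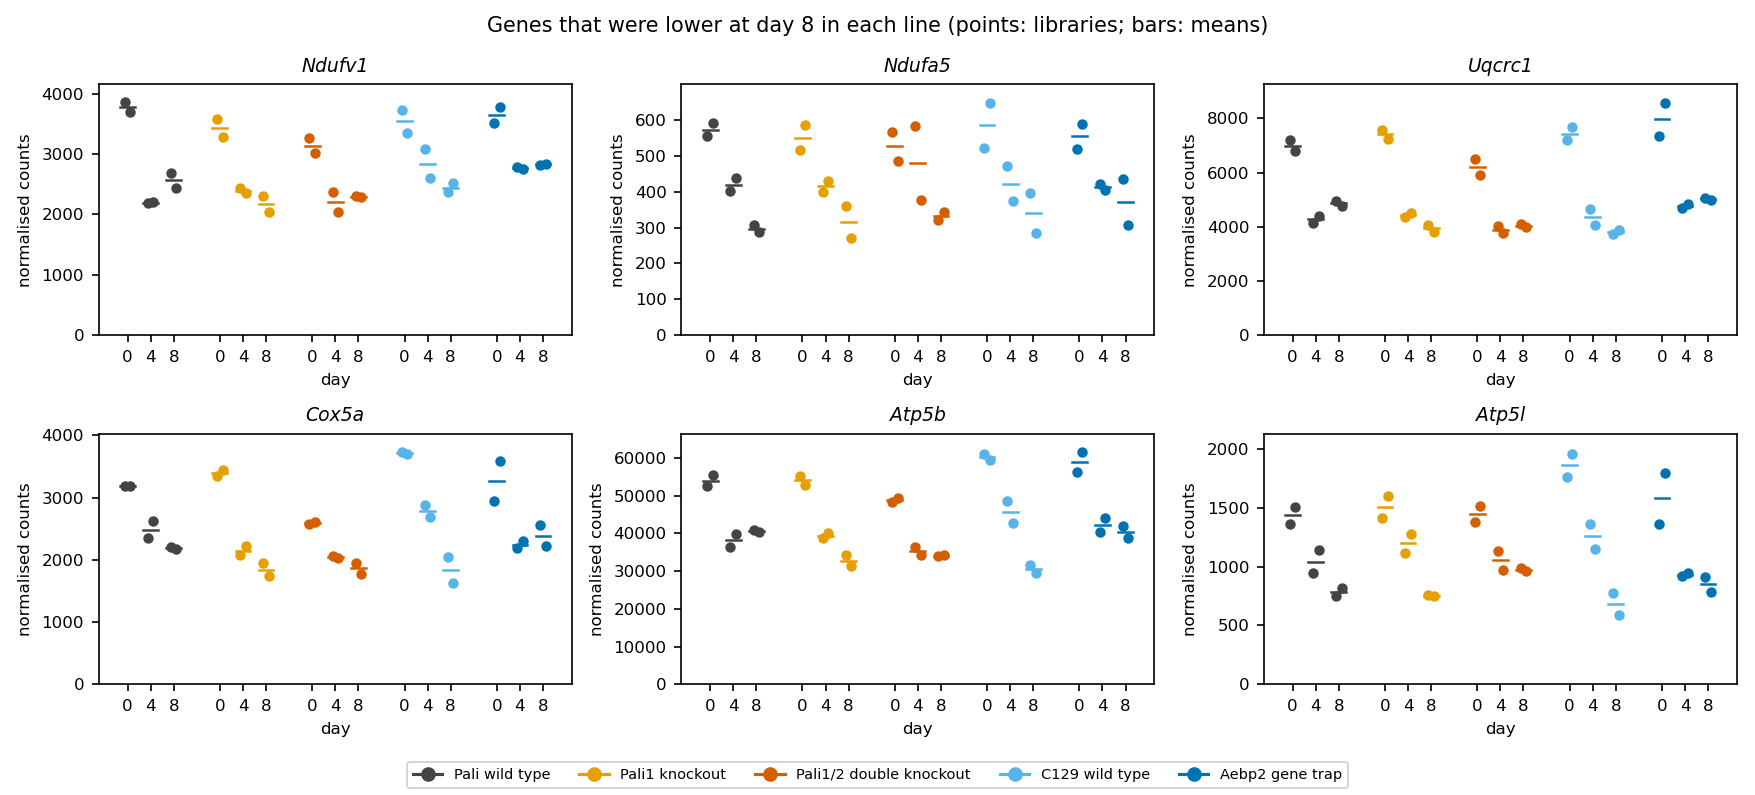
Normalised counts (vertical axis) of 6 respiratory chain genes that fell at day 8 in all 5 lines, Ndufv1, Ndufa5, Uqcrc1, Cox5a, Atp5b and Atp5l, by line and day, 1 point per library. For each gene all 10 day 8 libraries lie below all 10 day 0 libraries.

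Few genes of the group rose during differentiation, and none rose in all 5 lines. Cox6b2, a form of subunit VIb known from testis (chr7:4751792-4753094, minus strand), had 160 and 155 in C129 at day 0, 166 and 133 at day 4, and 389 and 341 at day 8. Its log2 change at day 8 was 1.19 (adjusted p = 4.18e-05), and the call held without any 1 of the 4 libraries. It rose at day 4 in Pali1 knockout by 0.51 (adjusted p = 0.0463) and in the double knockout by 0.78 (adjusted p = 0.00405), where without both libraries with conflicting descriptions it was 0.45 (adjusted p = 0.245). The 6 germ cell and testis markers summed to 1265 and 1222 in C129 at day 0 and to 486 and 171 at day 8. Of these markers Tnp1, Prm1 and Cyct were listed at 0 in both C129 libraries of day 0. The part of such cells in the result was not tested. The further rises were Ndufs4 and Ndufaf3 in the gene trap at day 4 (0.31 and 0.51) and Ndufaf7 in Pali wild type at day 4 (0.58).

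Few of these genes differed between Pali1 knockout and wild type by the test, and at day 8 the share called lower stood near that of all tested genes. At day 0, 1 of 85 was higher than in Pali wild type and 0 were lower (3.04% and 1.75% of all tested genes), with 6 at an unadjusted p under 0.05 in limma. At day 4, 3 were higher and 0 lower (1.07% and 1.6%). At day 8, 6 were lower and 1 higher (6.52% and 7.07% of all tested genes). The median log2 difference of the 85 genes was 0.01, 0.15 and -0.06 at day 0, 4 and 8, beside 0.00, 0.00 and 0.04 over all tested genes. Without 1 library it ran from 0.01 to 0.03, from 0.08 (without wild type replicate 1) to 0.21, and from -0.11 (without wild type replicate 1) to -0.03 (without knockout replicate 2). With only the compared groups in the fit, none of these 11 calls was made, and 4, 8 and 15 genes had an unadjusted p under 0.05.

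The 6 genes lower in Pali1 knockout at day 8 came from complexes I, II, III and V. Cell type markers differed at that day too, with pluripotency sums of 34667 and 29422 in the knockout against 71259 and 58429 in wild type, and neuroectoderm sums of 12435 and 15052 against 6124 and 4734. Their part in the result was not tested. Atp5a1 had 24536 and 22559 in the knockout against 30104 and 30240 in wild type (log2 difference -0.36, adjusted p = 0.00075), a call that held without any 1 of the 4 libraries. Atp5b had 34147 and 31290 against 40995 and 40459 (-0.32, adjusted p = 0.00524), and lost the call without knockout replicate 2 (adjusted p = 0.089). Uqcrc1 had 4069 and 3825 against 4962 and 4776 (-0.30, adjusted p = 0.0142). The groups did not overlap in any of the 3 genes. Uqcr10 had 26.1 and 55.9 against 94.3 and 113 (-1.34, adjusted p = 0.00418), which without knockout replicate 1 had an adjusted p of 0.0815. Ndufa13, a membrane arm subunit also known as GRIM-19, had 322 and 272 against 413 and 483 (-0.59, adjusted p = 0.0343), a call lost without any 1 of the 4 libraries. Sdhb had 273 and 90.4 against 332 and 331 (-1.05, adjusted p = 0.0468), and without knockout replicate 2 its adjusted p was 0.643.

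Cox7b2, a form of subunit VIIb known from testis (chr5:71442824-71548205, minus strand), was the gene higher in Pali1 knockout at all 3 days. At day 0 it had 53.3 and 59.8 in the knockout against 3.29 and 8.55 in wild type (log2 difference 2.66, SE 0.44, adjusted p = 0.00177), a call that held without any 1 of the 4 libraries. At day 4 it had 10.6 and 18.4 against 0.906 and 1.10 (1.86, adjusted p = 0.0312), and at day 8 16.3 and 17.3 against 1.00 and 3.33 (1.78, adjusted p = 0.0117). The day 4 call was lost without any 1 of the 4 libraries, and the day 8 call without 3 of the 4. The groups did not overlap at any day, and the values are low, so the log2 differences at a pseudocount of 4 understate the ratio. Both wild type lines held 0 to 8.55 in all their libraries. Within Pali1 knockout Cox7b2 fell from day 0 to day 4 by 1.74 on the log2 scale (adjusted p = 0.00584) and to day 8 by 1.54 (adjusted p = 0.00925), the second lost without day 0 replicate 2 (0.054). The fall of Cox7b2 to day 8 was not particular to this line, since the gene was called lower in 3 of the 5 lines. Over the 5 lines its log2 change at day 8 ran from -1.54 to 0.17, with a median of -1.29. Germ cell and testis markers summed to 594 and 689 in Pali1 knockout at day 0 against 556 and 553 in wild type, and their part in the result was not tested. The other genes higher at day 4 were Ndufs4 (1355 and 1535 against 1047 and 1178, 0.38, adjusted p = 0.0319) and Cox7a2l (4110 and 4395 against 3238 and 3477, 0.34, adjusted p = 0.0448).

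The double knockout gave few calls against the same wild type libraries. At day 0, 1 of 85 genes was higher and 1 lower (2.95% and 0.719% of all tested genes). At day 4, 1 was higher and 0 lower (0.987% and 1.08%), and at day 8, 0 were higher and 3 lower (4.13% and 3.08%). The medians of the 85 genes were -0.14, 0.00 and -0.08, beside 0.01, 0.00 and 0.03 over all tested genes. Without 1 library the day 4 median ran from -0.07 (without double knockout replicate 1) to 0.06 (without its replicate 2), and the day 8 median from -0.09 to -0.04 (without double knockout replicate 1). Cox7b2 was again the higher gene, with 48.7 and 24.2 at day 0 (log2 difference 2.01, adjusted p = 0.0145) and 13.5 and 13.7 at day 4 (1.81, adjusted p = 0.0418). At day 8 it had 9.40 and 14.5. The groups did not overlap at these days. Without replicate 1 of the double knockout, whose description conflicts with its title, 0 genes passed limma's test at day 0 or at day 4, and 7 and 8 had an unadjusted p under 0.05. Cox7b2 then had log2 differences of 1.56 (adjusted p = 0.221) and 1.82 (adjusted p = 0.145).

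Sdha was lower in the double knockout at day 0, with 5764 and 5755 against 6884 and 6790 (log2 difference -0.25, adjusted p = 0.0313). The 3 genes lower at day 8 were Atp5a1 (25001 and 25410, -0.26, adjusted p = 0.0159), Atp5b (34094 and 34159, -0.26, adjusted p = 0.0348) and Uqcrc1 (4085 and 3976, -0.27, adjusted p = 0.0422). Each of these 4 calls was lost without any 1 of the libraries compared. With only the compared groups in the fit, 0 genes passed at any day, and 13, 6 and 12 had an unadjusted p under 0.05. The same 3 genes were called lower against the same Pali wild type libraries in Pali1 knockout and in C129 at day 8, and these comparisons share their control libraries. Pluripotency markers summed to 42312 and 39231 in the double knockout at day 8, and their part in the result was not tested.

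Few genes differed by the test between the double and the single knockout. At day 0, 0 of 85 were higher and 2 lower in the double than in the single knockout (2.04% and 1.04% of all tested genes). The 2 lower genes were Cox7a2l (log2 difference -0.43, adjusted p = 0.0111) and Sdha (-0.25, adjusted p = 0.0364). An unadjusted p under 0.05 in limma was reached by 20 genes at day 0. With 1 library left out, the median log2 difference of the 85 genes ran from -0.20 to -0.15 at day 0. It ran from -0.20 to -0.06 at day 4 and from -0.04 to 0.04 at day 8. At day 4 and day 8, 0 passed limma's test (0.929% of all tested genes were higher and 0.452% lower at day 4, 0.936% and 0.439% at day 8), and 24 and 6 had an unadjusted p under 0.05. Without both double knockout libraries with conflicting descriptions, 0 passed at day 0 (17 at an unadjusted p under 0.05), with adjusted p of 0.13 for Cox7a2l and 0.141 for Sdha. A p that misses the threshold does not show that the lines were alike.

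**Figure D4:**
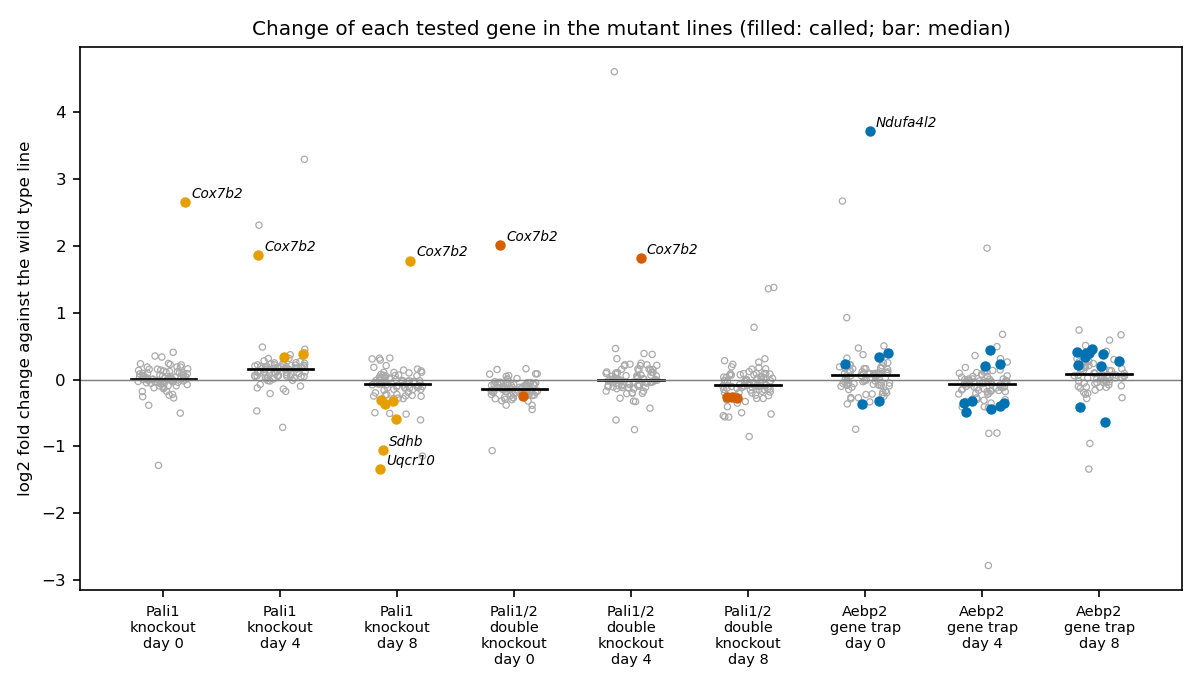
Log2 difference from the control line (vertical axis) of the 85 tested respiratory chain genes in Pali1 knockout, Pali1/2 double knockout and Aebp2 gene trap at day 0, 4 and 8, with filled points for genes at an adjusted p under 0.05 and bars for medians. Cox7b2 stands highest in both Pali mutants at day 0, at 2.66 and 2.01.

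The Aebp2 gene trap differed from C129 in 6, 9 and 11 of the 85 genes at day 0, 4 and 8. The share called in each direction lay near or below that of all tested genes. At day 8, 9 of 85 were higher and 2 lower (9.59% and 10.6% of all tested genes). At day 0, 4 were higher and 2 lower (5.23% and 7.78%), and at day 4, 3 were higher and 6 lower (4.05% and 4.96%). The medians at day 0, 4 and 8 were 0.06, -0.07 and 0.09, beside -0.03, 0.00 and -0.01 over all tested genes. Leaving out 1 library gave medians from -0.06 (without gene trap replicate 2) to 0.14 (without its replicate 1) at day 0, from -0.14 (without C129 replicate 2) to -0.04 at day 4 and from 0.01 (without gene trap replicate 1) to 0.14 at day 8. Pluripotency markers differed between these lines at day 8. They summed to 69384 and 62982 in the gene trap against 25395 and 18630 in C129, and their part in the gene differences was not tested. With only the compared groups in the fit, 1, 0 and 0 genes passed at day 0, 4 and 8, and 9, 11 and 11 had an unadjusted p under 0.05.

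At day 8 the genes higher in the gene trap came from complexes I, II, III, IV and V. Atp5b had 41925 and 38890 against 31637 and 29579 in C129 (log2 difference 0.40, adjusted p = 0.00052). Uqcrc1 had 5076 and 4992 against 3731 and 3873 (0.40, adjusted p = 0.00117), and Ndufa11, a membrane arm subunit of complex I, had 943 and 870 against 717 and 712 (0.34, adjusted p = 0.00231). These 3 calls held without any 1 of the 4 libraries, and the groups did not overlap. Ndufs8 had 1071 and 1041 against 778 and 760 (0.46, adjusted p = 0.00709), and Cox6a1, the common form of subunit VIa, 1294 and 1231 against 908 and 1011 (0.40, adjusted p = 0.00478). The others were Cox5a (0.39), Cox7b (0.28), Atp5a1 (0.22) and Sdha (0.20). Lower were Cox6b2, with 221 and 245 against 389 and 341 (-0.64, adjusted p = 0.0207), and the assembly factor Ndufaf4 (-0.41, adjusted p = 0.0498).

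The calls at day 0 and day 4 named partly other genes. Sdha was higher in the gene trap at both days, with 5369 and 5715 against 4571 and 4845 at day 0 (log2 difference 0.24, adjusted p = 0.017). Ndufb3, a membrane arm subunit, had 1037 and 1128 against 819 and 819 at day 0 (0.40, adjusted p = 0.00699). Atp5g2 was lower at day 0, with 3995 and 5026 against 5631 and 5874 (-0.36, adjusted p = 0.0245), and again at day 4 (-0.39, adjusted p = 0.0217). Ndufs4 was lower at day 0, with 965 and 1102 against 1369 and 1224 (-0.33). Ndufb10 was higher at both days (0.34 and 0.44), and Ndufb8 at day 4 (0.24). Lower at day 4 were also Cox4i1, Cox7a2l, Ndufaf4, Ndufb5 and Ndufb9. Ndufa4l2, a hypoxia-induced relative of the complex IV subunit Ndufa4, had 46.4 and 50.7 in the gene trap at day 0 and was listed at 0 in both C129 libraries, so no ratio is given.

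Leaving out 1 library moved these counts widely. The gene trap's 6 calls at day 0 became 0 without C129 replicate 1, 3 without C129 replicate 2 and 2 without either gene trap replicate. The 9 calls at day 4 became 1 without C129 replicate 1, 0 without gene trap replicate 1 and 3 without gene trap replicate 2. The 11 calls at day 8 became 6 without C129 replicate 2 and 3 without gene trap replicate 1, and were 11 and 12 without the others. The Pali1 knockout's 3 calls at day 4 became 0 without wild type replicate 1 or knockout replicate 2 and 1 without either other library. Its 7 calls at day 8 became 4 or 2 when its own first or second library was left out, and 3 without the first wild type library. The double knockout's 2 calls at day 0 became 0 without wild type replicate 1 or its own replicate 1, and 1 without wild type replicate 2. Its 1 call at day 4 was lost without any library but its replicate 2, and its 3 calls at day 8 became 0 without any 1 library. Between the knockouts the 2 calls at day 0 became 0 without replicate 1 of either, and 1 without replicate 2 of the double knockout.

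The wild type lines differed from each other in 10, 21 and 9 of the 85 genes at day 0, 4 and 8. At day 0 and day 8 the share called in each direction lay near or below that of all tested genes. At day 4 the share called higher lay above it. Between C129 and Pali wild type 4 of 85 genes were higher and 6 lower in C129 at day 0 (12% and 9.06% of all tested genes). At day 4, 15 were higher and 6 lower (8.35% and 7.57%), and at day 8, 2 were higher and 7 lower (8.86% and 8.49%). The medians were -0.02, 0.18 and -0.02, beside 0.05, 0.00 and 0.02 over all tested genes. Without 1 library they ran from -0.04 (without Pali wild type replicate 1) to 0.03 (without C129 replicate 1) at day 0, from 0.09 (without Pali wild type replicate 1) to 0.25 at day 4 and from -0.05 (without Pali wild type replicate 1) to 0.03 (without its replicate 2) at day 8. With only both lines in the fit, 4, 0 and 0 passed, and 21, 21 and 9 had an unadjusted p under 0.05. The 10 calls at day 0 became 6 without Pali wild type replicate 1, and 4 without its replicate 2 or without C129 replicate 1. The 21 calls at day 4 became 9 without Pali wild type replicate 1 and 10 without C129 replicate 1.

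Ndufa12, a supernumerary subunit of the matrix arm (chr10:94198720-94221443, plus strand), was lower in C129 at every day. It had 257 and 246 in C129 against 621 and 719 in Pali wild type at day 0 (log2 difference -1.40, adjusted p = 5.28e-06). At day 4 it had 259 and 240 against 583 and 737 (-1.38, adjusted p = 1.48e-05), and at day 8 214 and 177 against 543 and 621 (-1.56, adjusted p = 3.42e-06). The 3 calls held without any 1 library. Over all 30 libraries Ndufa12 lay between 543 and 844 in the Pali lines and between 177 and 259 in C129 and the gene trap. The line pairs did not overlap at any day, and no mutant line passed against its control.

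Sdha was lower in C129 at each day, with 4571 and 4845 against 6884 and 6790 at day 0 (log2 difference -0.54, adjusted p = 7.34e-06), and differences of -0.32 at day 4 and -0.34 at day 8. Ndufa11 was higher in C129 at day 0, with 1339 and 1184 against 890 and 842 (0.54, adjusted p = 3.66e-05), and at day 4 by 0.44. Both genes kept these calls without any 1 library. Cox6b2 was lower in C129 at day 0 (160 and 155 against 264 and 299, -0.82, adjusted p = 0.00398) and at day 4 (-1.16, adjusted p = 0.000427). At day 8 Atp5b, Atp5a1 and Uqcrc1 were lower in C129, by 0.41, 0.30 and 0.36 on the log2 scale.

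**Figure D5:**
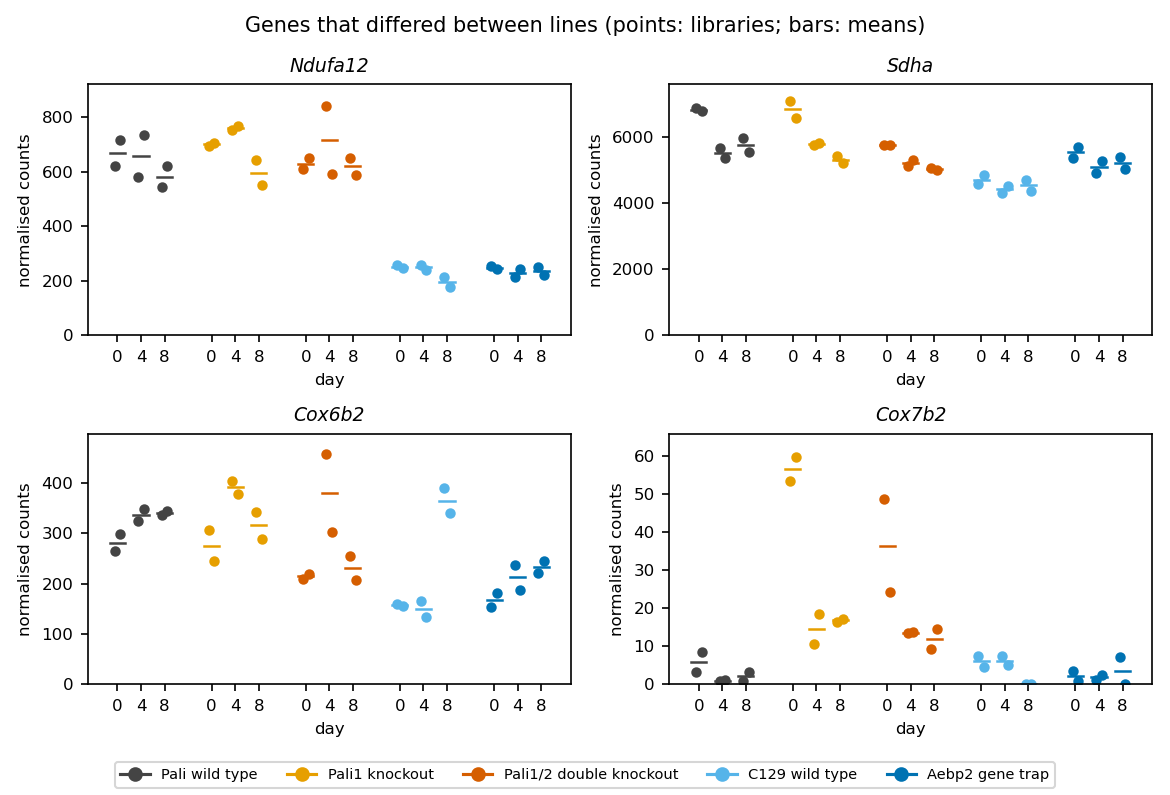
Normalised counts (vertical axis) of Ndufa12, Sdha, Cox6b2 and Cox7b2 by line and day, 1 point per library. Ndufa12 lies between 177 and 259 in C129 and the gene trap and between 543 and 844 in the Pali lines, and Cox7b2 is highest in the day 0 libraries of both Pali mutants.

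The course from day 0 to day 8 was compared between lines as a difference of changes. For Pali1 knockout against wild type, 0 of 85 genes had a more positive and 3 a more negative change (2.7% and 3.02% of all tested genes). These were Atp5a1, Uqcr10 and Uqcrc1. For the double knockout 0 passed limma's test (0.426% and 0.694% of all tested genes), and 0 had an unadjusted p under 0.05. For the gene trap against C129, 6 had a more positive and 2 a more negative change (8.66% and 6.61%), and for C129 against Pali wild type 3 and 4 (5.87% and 8.32%). Leaving out any 1 library took the 3 calls of Pali1 knockout to between 0 and 2. The gene trap's 8 calls became 2 without C129 day 0 replicate 1 or gene trap day 8 replicate 1, 3 without C129 day 8 replicate 2 or gene trap day 0 replicate 1, and 4 without C129 day 0 replicate 2. The 7 calls of C129 against Pali wild type became 2 without day 0 replicate 2 of either line, 3 without C129 day 0 replicate 1 or either day 8 library of Pali wild type, and 4 without C129 day 8 replicate 2.

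Of the genes tested for this difference, Atp5b had the lowest adjusted p in the last 2 comparisons. Its fall was 0.57 larger on the log2 scale in C129 than in Pali wild type (difference -0.57, SE 0.099, adjusted p = 0.000863) and smaller in the gene trap than in C129 (difference 0.43, adjusted p = 0.00674). Both calls held without any 1 of the 8 libraries, and they share the C129 libraries. Ndufa11 gave differences of -0.50 (adjusted p = 0.00286) and 0.43 (adjusted p = 0.00836), the first of which held without any 1 of the 8 libraries and the second without 6 of them. The pluripotency markers summed to 25395 and 18630 in the C129 libraries at day 8, below every other day 8 library, and to 71259 and 58429 in Pali wild type. Their part in the result was not tested.

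Genes that work beside the respiratory chain were followed through lists of known members. Of 16 genes of the tricarboxylic acid cycle and pyruvate dehydrogenase, 8, 11, 10, 9 and 9 fell at day 8 in Pali wild type, Pali1 knockout, double knockout, C129 and gene trap. Among all tested genes 11.7%, 20.1%, 14.2%, 22.4% and 14.9% fell in the same order, and 14%, 22%, 16.7%, 23.4% and 16.3% rose. This and the following counts stand beside these shares. Those that fell in all 5 included Idh3a, Idh3b, Ogdh, Pdhb and Dlat. Fh1, fumarase, rose in C129 and the gene trap and fell in Pali1 knockout. Of 39 tested assembly factors of the complexes, 12, 15, 9, 14 and 12 fell, and 0, 1, 0, 6 and 3 rose. Sco1, which delivers copper to complex IV, fell in all 5 lines by 0.62 to 0.79, and Lrpprc, which stabilises mitochondrial messenger RNA, by 0.32 to 0.68.

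Cyc1, the cytochrome c1 of complex III that the naming rule leaves out, fell in all 5 lines by 0.22 to 0.59 on the log2 scale. Of 17 tested regulators of mitochondrial genes and mitochondrial DNA, 3, 5, 4, 5 and 2 fell and 1, 2, 0, 4 and 2 rose. The falls lay above the shares of all tested genes in every line but the gene trap, though each count is of few genes. The rises lay near or below those shares. The list of regulators includes Esrrb, which is also among the pluripotency markers. Gabpa, the DNA-binding subunit of GABP, fell in all 5 lines, by 0.57, 0.91, 0.45, 0.95 and 0.53 with limma's adjusted p between 8.64e-06 and 0.0134. It is 1 gene picked from this list, of which other genes rose in every line but the double knockout. Its part in the falls of the respiratory chain genes was not tested. Of 16 glycolysis genes 2, 6, 6, 3 and 2 fell and 0, 0, 0, 1 and 2 rose. The glycolysis falls lay near the share of all tested genes in Pali wild type, C129 and the gene trap. The rises lay below the share of all tested genes in each line. Pgam1 fell in every line but Pali wild type.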

How the data were processed

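RNA sequencing of 30 libraries gave 1 deposited table of normalised counts, a signal per gene and library made by the authors that need not be whole. Per the submitters' processing notes, the mm10 build and the tools HISAT2 2.0.5, kallisto 0.43.1 and DESeq2 were used. The sources used here do not say what each tool made or name an annotation. The depth in reads is unknown, and whole reads were not recovered, so no count model was run.

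The test took the 15712 genes that reached 10 in 2 or more libraries. Values were transformed as log2(value + 4), which understates changes of low genes. All 30 libraries entered 1 linear model of 15 group means in limma 3.58.1 (R 4.3.3), with trend and robust variance moderation and 15 residual degrees of freedom. The Benjamini-Hochberg adjustment ran over all tested genes in each of 29 comparisons, at a threshold of 0.05. All adjusted p-values are limma's. The script was tested on simulated data.

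The genes, lists and tests were chosen with earlier results of these data known. Named were, in each comparison, called genes with a log2 change of at least 1 in size and up to 3 per complex and direction with the lowest adjusted p, and tissue-restricted copies. Others were chosen after their values were seen. Alternatives were other pseudocounts (1 and 16), filters, a TMM rescaling, the compared groups alone, a replicate block and each library left out. Same-numbered libraries did not deviate together (correlations -0.062 to 0.109 over 25 comparisons). GENCODE M21 (GRCm38, also called mm10) gave gene coordinates, and promoters are from RefSeq on GRCm38.p6. Some single-gene results are not reported here.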

Additional observations from a re-analysis of the deposited data

Results flagged for a closer look

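The genes below were singled out because their log2 change from day 0 to day 8 differed between 2 lines by limma's test of the difference itself. Each difference is that of the first line minus that of the second, over 8 libraries.

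For Pali1 knockout against Pali wild type, the differences were -0.30 for Atp5a1 (adjusted p = 0.046), -1.49 for Uqcr10 (0.0373) and -0.39 for Uqcrc1 (0.048). With only the compared groups in the fit none of the 3 passed.

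For the Aebp2 gene trap against C129 wild type, the differences were 0.43 for Atp5b (adjusted p = 0.00674), 0.58 for Cox5a (0.0135), 0.40 for Cox6a1 (0.0443) and 0.43 for Ndufa11 (0.00836). They were 0.39 for Ndufs4 (0.0449), 0.50 for Ndufs8 (0.0404) and -0.43 for Ndufb3 (0.029). Ndufa4l2 had a fitted difference of -5.05 (0.0337). Its libraries were 46.4 and 50.7 at day 0 and 0 and 12.3 at day 8 in the gene trap, and 0 and 0, then 21.7 and 12.2, in C129. With groups listed at 0 that value depends on the pseudocount and is no fold.

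For C129 against Pali wild type, the differences were -0.57 for Atp5b (0.000863), -0.48 for Cox5a (0.0362), -0.50 for Ndufa11 (0.00286) and -0.44 for Uqcrc1 (0.0118). They were 0.92 for Cox6b2 (0.0264) and 0.43 for Ndufb3 (0.0322). Ndufa4l2 had a fitted difference of 4.80 (0.0449), again with groups listed at 0. The last 2 comparisons share the C129 libraries, so opposite signs in the same gene are not separate evidence.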

How the results depend on the processing

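With 2 libraries per group, counts of calls moved with single libraries and with the libraries that estimate the spread. No called value changed sign, but medians near 0 between lines did when 1 library was left out. At the level of named genes, leaving out 1 library kept 2880 outcomes, ended 458 and added 22, and the other settings kept 5636, ended 286 and added 25. Why counts moved was not tested, beyond the fewer samples of the smaller fits.

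With only the compared groups fitted, calls went from 38 to 16 and from 47 to 28 at day 4 and day 8 in Pali wild type, from 24 to 10 and from 37 to 19 in the double knockout, from 25 to 13 in C129 at day 4, and from 39 to 15 and from 42 to 17 in the gene trap. Mutant calls went to 0 in both Pali mutants at all days, and to 1, 0 and 0 in the gene trap. Calls between wild type lines went to 4, 0 and 0, between the Pali mutants at day 0 to 0, and differences of change to 0 (Pali1 knockout), 1 (gene trap) and 2 (C129). TMM rescaling gave 5 calls for the gene trap at day 4, 1 between the Pali mutants at day 0 and 1 for the change of Pali1 knockout. A filter at a mean of 50 removed Cox7b2, leaving 0 for Pali1 knockout at day 0 and 0 for the double knockout at day 4, and gave 4 between the Pali mutants at day 0. No filter gave 3 for the gene trap at day 4, and 1 (Pali1 knockout) and 5 (gene trap) for differences of change. A pseudocount of 1 gave 1 and 0 for the double knockout at day 0 and day 4, and one of 16 gave 0 at day 4.

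Same-numbered libraries share only a number. A replicate block gave 2 calls for the double knockout at day 4. A replicate block within lines gave 1 and 2 for it at day 0 and day 4, 1 between the Pali mutants at day 0, and 0 (Pali1 knockout) and 5 (gene trap) for differences of change.

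Leaving out each library gave ranges at day 4 and day 8 of 21 to 38 and 27 to 36 in Pali wild type, 15 to 21 and 42 to 59 in Pali1 knockout, 14 to 23 and 18 to 26 in the double knockout, 12 to 24 and 34 to 47 in C129, and 21 to 43 and 23 to 44 in the gene trap. Against controls at day 0, 4 and 8 they were 1 to 1, 0 to 1 and 2 to 5 for Pali1 knockout, 0 to 2, 0 to 1 and 0 to 0 for the double knockout, and 0 to 3, 0 to 6 and 3 to 12 for the gene trap. Between wild type lines they were 4 to 7, 9 to 18 and 6 to 11, and between the Pali mutants 0 to 3, 0 to 1 and 0 to 1. For differences of change they were 0 to 2 (Pali1 knockout), 0 to 0 (double knockout), 2 to 9 (gene trap) and 2 to 6 (C129).

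An alternative chosen after seeing the data left out both libraries with conflicting descriptions. Double knockout calls went from 37 to 20 at day 8, from 2 and 1 to 0 and 0 against wild type at day 0 and day 4, and from 2 to 0 against Pali1 knockout at day 0. The genes with every day 4 library below every day 0 library went from 9 to 14. The depth in reads being unknown, no limit of detection can be given for genes listed at 0.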
